A study of Mus musculus with 36 samples.

Results

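The genes of cGAS-STING and TBK1 signalling described here are Mb21d1 (now named Cgas), Tmem173 (now Sting1), Tbk1, Ikbke, Tank and Traf3. They were chosen by symbol from the 24127 genes of a table of normalized read counts in mouse dendritic cells, and all 6 were found in it. All 6 also reached the mean normalized count of 10 over all libraries that was required for testing, as did 11853 genes in all.

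cGAS is an enzyme that binds DNA in the cytosol and makes cyclic GMP-AMP. STING is the membrane adaptor that binds this messenger and recruits the kinase TBK1. TBK1 and the related kinase IKK-epsilon, the product of Ikbke, phosphorylate the interferon regulatory factors IRF3 and IRF7, and viral RNA seen by RIG-I reaches the same kinases through the adaptor MAVS. TRAF3 is a ubiquitin ligase that links such adaptors to the kinases and also restrains the alternative NF-kB pathway. TANK is a scaffold that binds TRAF proteins, TBK1 and IKK-epsilon.

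The cells were dendritic cells grown from mouse bone marrow in GM-CSF and enriched with CD11c beads. They came from mice labelled LGP2-/- (Dhx58-/-, here KO), a label that stands for loss of the RNA helicase LGP2, or from C57BL/6J mice (here WT), and the strain label of every library is C57BL/6. Cells of both genotypes received either 20 ng of a RIG-I agonist by transfection, the poly-U/UC pathogen RNA of hepatitis C virus (here PAMP RNA), or served as mock controls, and RNA was taken at 1, 3 or 6 h. Each of the 12 groups held 3 libraries. At each time these groups were KO PAMP, KO mock, WT PAMP and WT mock.

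The labels call the controls both mock and untreated, so a response (PAMP minus mock at the same time) cannot be told apart from an effect of transfection itself. They describe the libraries of a group as biological triplicates plated for each condition, without naming separate mice, so a p-value reflects only how far these libraries vary, which may be technical. Neither the age of the mice nor the design of the Dhx58 allele is stated in the labels.

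The depth was 4740909 to 14255730 reads assigned to genes per library, with 14371 to 15417 genes detected. Libraries of a group correlated at 0.989 or more on the log2 scale. The fewest reads on any of the 6 genes in any library were 148, on Mb21d1 in a WT mock library at 6 h. Of 8 dendritic cell markers 7 had a mean of at least 10, among them Itgax, which encodes CD11c (2354 to 3441 normalized counts), while Flt3 lay between 0.74 and 25.9. Macrophage markers were present too: 7 of the 8 listed symbols were in the table, all with a mean of at least 10, such as Csf1r (3784 to 10376). The absent symbol, Adgre1, names the same gene as Emr1, which was in the table. Neutrophil markers summed to 114 to 252 normalized counts per library, and B cell markers to at most 17.8, T cell markers to 1.8, NK cell markers to 18.8 and mast cell markers to 6.4. In these bulk samples, fewer cells of a type and less RNA per cell cannot be told apart.

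Dhx58, the targeted gene, held reads in the KO libraries. At 6 h it averaged 935 normalized counts in KO PAMP cells, 722 in KO mock cells, 3005 in WT PAMP cells and 307 in WT mock cells. Its response was smaller in KO cells (KO minus WT -2.93 on the log2 scale, SE 0.19, adjusted p = 3.82e-15), which goes with the label. In mock cells it was higher in KO by 1.23 (SE 0.14, adjusted p = 3.1e-09), which goes against it. The libraries do not mark the strand, and the antisense gene Dhx58os overlaps Dhx58. WT and KO therefore mean libraries labelled so throughout, for every genotype difference.

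The promoters of 3 members are shown because Mb21d1 had the largest rise, while Tank rose and Traf3 fell and both hold the same kind of motif. Each is the RefSeq window on GRCm38.p6 from 250 bases before the start site to 50 after it, 5′ to 3′ on the gene's strand. The windows lie at chr9:78443188-78443487 (minus) for Mb21d1, chr2:61592847-61593146 (plus) for the first of the 4 start sites of Tank, and chr12:111166120-111166419 (plus) for Traf3. Capitals mark matches to the degenerate NF-kB consensus.
Mb21d1: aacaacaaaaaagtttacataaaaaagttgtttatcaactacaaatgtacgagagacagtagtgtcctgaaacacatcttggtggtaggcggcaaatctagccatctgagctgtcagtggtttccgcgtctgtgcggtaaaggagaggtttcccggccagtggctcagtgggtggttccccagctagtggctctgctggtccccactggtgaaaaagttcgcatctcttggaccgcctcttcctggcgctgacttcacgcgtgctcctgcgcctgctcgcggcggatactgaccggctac
Tank: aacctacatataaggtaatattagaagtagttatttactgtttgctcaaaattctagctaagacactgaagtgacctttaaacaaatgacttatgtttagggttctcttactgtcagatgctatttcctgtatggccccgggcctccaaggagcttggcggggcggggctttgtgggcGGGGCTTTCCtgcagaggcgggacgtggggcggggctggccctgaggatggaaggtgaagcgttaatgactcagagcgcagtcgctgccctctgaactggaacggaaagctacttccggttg
Traf3: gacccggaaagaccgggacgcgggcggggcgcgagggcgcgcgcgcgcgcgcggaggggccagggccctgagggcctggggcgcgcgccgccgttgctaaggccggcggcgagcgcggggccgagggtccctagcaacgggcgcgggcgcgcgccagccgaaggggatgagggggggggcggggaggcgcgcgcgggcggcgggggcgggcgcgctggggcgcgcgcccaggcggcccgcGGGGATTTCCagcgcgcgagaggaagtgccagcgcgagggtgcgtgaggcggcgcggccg

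RefSeq windows were found for 5 of the 6 genes (all but Tmem173), 8 windows in all because Tank has 4. On both strands, none of the 8 held the core of the interferon-stimulated response element, GAAANNGAAA, which 3.44% of 32851 promoters hold, or the NF-kB site GGGANNTTCC, which 1.47% hold. Because neither matched, the gamma-activated site TTCNNNGAA (8.3% of promoters) and the degenerate NF-kB consensus (5.8%), which overlaps the NF-kB site, were searched afterwards. Among 11429 promoters of tested genes, 7.17% hold the gamma-activated site and 7.07% the degenerate consensus. The gamma-activated site had no match. The consensus matched in Traf3, starting 10 bases before the start site (GGGGATTTCC), and in all 4 windows of Tank, starting 72 bases before it in the window shown (GGGGCTTTCC). The windows of Tank overlap in pairs and each pair shares its match, so the 4 windows hold 2 distinct sites. Tbk1 and Ikbke had no match to any of the 4 motifs. A match is a description of the letters and not of binding.

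On the GRCm38 genome, the GENCODE M21 annotation places Mb21d1 on chromosome 9 (78430526 to 78443237, minus strand) and Tmem173 on chromosome 18 (35733679 to 35740554, minus). Tbk1 lies on chromosome 10 (121546455 to 121586787, minus) and Ikbke on chromosome 1 (131254343 to 131279606, minus). Tank lies on chromosome 2 (61578585 to 61654171, plus) and Traf3 on chromosome 12 (111166370 to 111267153, plus). The spans of genes on the opposite strand overlap those of Mb21d1 (the pseudogene Gm8093), Ikbke (Gm28914 and Gm28913) and Traf3 (4930595D18Rik). Whether their exons overlap was not examined. Reads from any shared exon bases cannot be separated, because the libraries do not mark the strand.

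**Figure D1:**
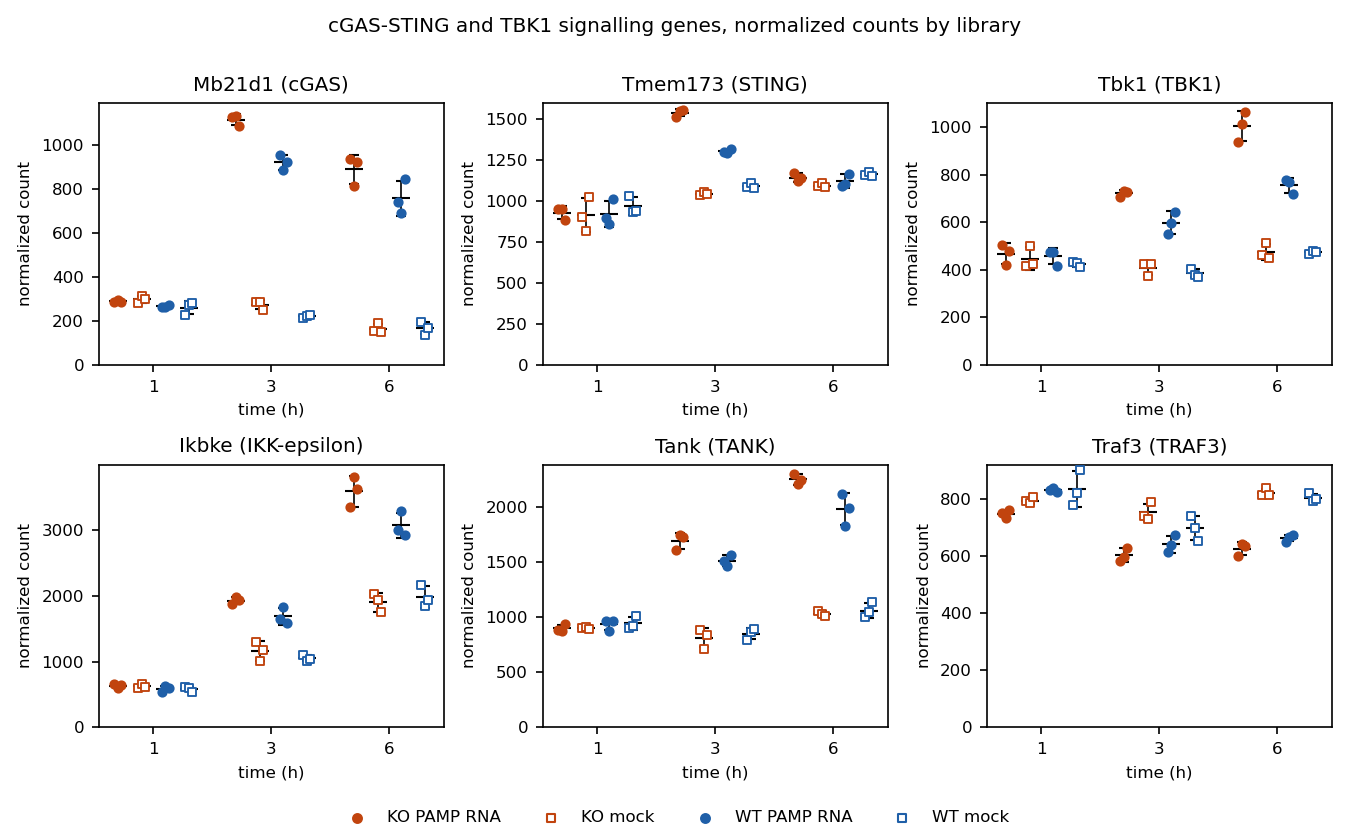
Normalized counts of the 6 genes in each of the 36 libraries, by time (h) and group, with 1 point per library and the mean and SD (n = 3) in black. At 3 and 6 h the PAMP libraries of Mb21d1, Tbk1, Ikbke and Tank lie above the mock libraries of the same genotype.

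At 1 h no response of the 6 genes was detectable. In limma 0 of 6 passed in either genotype, with 0 at an unadjusted p under 0.05, and edgeR and DESeq2 called 0 as well. Of all genes tested 1.36% passed in KO cells and 0.945% in WT cells. Log2 responses of the 6 genes at 1 h lay between -0.08 and 0.10.

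At 3 h all 6 changed in KO cells, 5 higher and 1 lower, and 5 changed in WT cells, all higher. At 6 h 5 changed in each genotype, with Mb21d1, Tbk1, Ikbke and Tank higher and Traf3 lower. The share of all genes called was 50.6% in KO and 41.6% in WT cells at 3 h (23.8% higher and 26.9% lower in KO, 19.6% higher and 22.0% lower in WT). At 6 h it was 71.7% in KO and 65.4% in WT cells (35.1% higher and 36.5% lower in KO, 32.1% higher and 33.3% lower in WT), so 5 of 6 members is not far from the background. The median log2 response of the 6 genes was 0.78 in KO and 0.66 in WT cells at 3 h, and 1.00 in KO and 0.65 in WT cells at 6 h. Over all genes tested it was -0.03 in KO and -0.03 in WT cells at 3 h, and -0.03 in KO and -0.02 in WT cells at 6 h.

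By library, PAMP and mock groups did not overlap for 1, 6 and 6 of the 6 genes at 1, 3 and 6 h in KO cells, where 16.4%, 54.8% and 73.0% of all genes did not. In WT cells they did not overlap for 0, 5 and 5 of the 6 genes, where 12.2%, 53.6% and 67.1% of all genes did not.

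**Figure D2:**
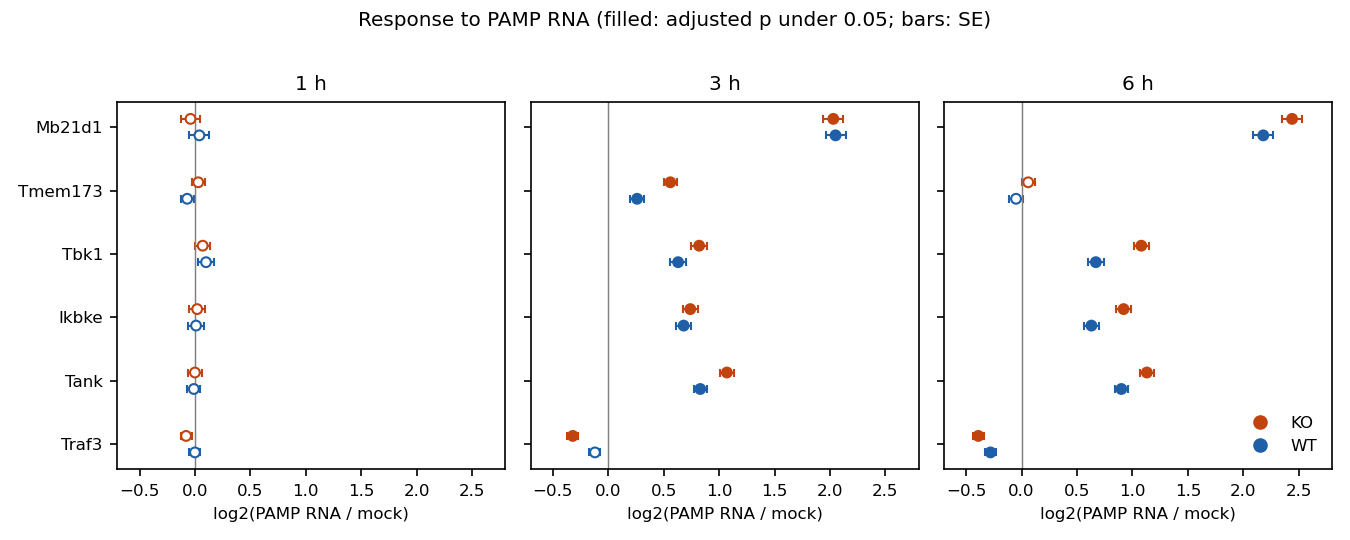
Log2 response to PAMP RNA (PAMP minus mock of the same genotype and time, with SE) of the 6 genes at 1, 3 and 6 h, with KO above WT and filled points at an adjusted p under 0.05. No gene passes at 1 h, Mb21d1 lies beyond 2 at 3 and 6 h, and Traf3 lies below 0 at 3 and 6 h, unfilled in WT cells at 3 h.

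Mb21d1, the gene of the DNA sensor cGAS, had the largest response of the 6 at 3 and 6 h in both genotypes. At 3 h it had 1128, 1131 and 1085 normalized counts in KO PAMP cells, against 287, 284 and 249 in KO mock cells. The same gene had 952, 885 and 923 in WT PAMP cells, against 214, 225 and 227 in WT mock cells. Every PAMP library stood above every mock library. At 6 h it had 935, 813 and 920 normalized counts in KO PAMP cells, against 154, 189 and 149 in KO mock cells. There were 739, 689 and 845 in WT PAMP cells, against 194, 138 and 170 in WT mock cells. The groups again did not overlap. The log2 response at 3 h was 2.03 in KO cells (4.08-fold, SE 0.09, adjusted p = 1.3e-24) and 2.05 in WT cells (4.13-fold, SE 0.09, adjusted p = 1.22e-24). The 6 h response was 2.44 in KO cells (SE 0.09, adjusted p = 4.54e-28) and 2.18 in WT cells (SE 0.09, adjusted p = 6.01e-26).

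The response of Mb21d1 at 6 h stood on lower levels in both arms than at 3 h. PAMP cells averaged 1115 ± 26.1 normalized counts at 3 h and 890 ± 66.6 at 6 h in KO, and 920 ± 33.7 and 758 ± 79.8 in WT (SD, n = 3). Mock cells averaged 298 ± 14.5, 273 ± 20.9 and 164 ± 21.9 at 1, 3 and 6 h in KO, and 261 ± 28.3, 222 ± 6.76 and 167 ± 28.0 in WT. Between 3 and 6 h the mock level fell (-0.74 on the log2 scale in KO, adjusted p = 4.14e-09, and -0.42 in WT, adjusted p = 0.000162). The response in KO cells was higher at 6 h than at 3 h by 0.41 (SE 0.13, adjusted p = 0.00822). This call was lost under quantile normalization (0.29, adjusted p = 0.0737) and with equal total reads (0.17, adjusted p = 0.274), and in WT cells the same difference was 0.14 (adjusted p = 0.444). Of the 6 genes, 3 differed in response between 6 and 3 h in KO (Mb21d1, Tmem173 and Tbk1) and 1 in WT cells (Tmem173). The share of all genes was 40.8% in KO and 34.3% in WT. The Tbk1 call in KO (0.26, adjusted p = 0.0424) was lost under quantile normalization (0.05, adjusted p = 0.753) and with equal total reads (0.02, adjusted p = 0.895). It was lost too with no filter, in DESeq2 and in 9 of 12 fits without a library.

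Tmem173, the gene of STING, rose at 3 h and not detectably at 6 h. At 3 h it had 1514, 1548 and 1556 normalized counts in KO PAMP cells, against 1039, 1052 and 1045 in KO mock cells. Its values were 1300, 1290 and 1318 in WT PAMP cells, against 1083, 1109 and 1077 in WT mock cells. PAMP and mock libraries stood apart in both genotypes. At 6 h there were 1169, 1120 and 1141 normalized counts in KO PAMP cells, against 1090, 1109 and 1083 in KO mock cells. Its values were 1094, 1104 and 1168 in WT PAMP cells, against 1156, 1176 and 1155 in WT mock cells. The KO PAMP libraries lay just above the KO mock libraries, and the WT groups overlapped. The log2 response at 3 h was 0.56 in KO cells (SE 0.06, adjusted p = 9.42e-12) and 0.26 in WT cells (SE 0.06, adjusted p = 0.000209). By 6 h it was 0.06 in KO cells (adjusted p = 0.319) and -0.05 in WT cells (adjusted p = 0.433). The response was lower at 6 h than at 3 h (-0.49 in KO, SE 0.08, adjusted p = 2.17e-06, and -0.31 in WT, SE 0.08, adjusted p = 0.00218). In WT cells the rise at 3 h did not pass under quantile normalization (0.05, adjusted p = 0.468) or equal total reads (0.08, adjusted p = 0.188).

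The direction of Tmem173 at 6 h depended on the scaling. Under quantile normalization it was lower with PAMP RNA, at -0.34 in KO cells (adjusted p = 6.24e-07) and -0.37 in WT cells (adjusted p = 1.32e-07). With equal total reads it was at -0.42 in KO cells (adjusted p = 9.47e-10) and -0.42 in WT cells (adjusted p = 1.18e-09). Relative to the median gene, the 6 h response was 0.09 in KO and -0.03 in WT cells, with the deposited values as with equal total reads, but -0.22 in KO and -0.26 in WT cells under quantile normalization. The sum of normalized counts at 6 h was 10297148 to 10494569 in KO PAMP and 7318097 to 7478000 in KO mock cells, and 9511224 to 9708651 in WT PAMP and 7359444 to 7462243 in WT mock cells. Equal total reads moved the median gene's response by -0.25 in KO and -0.18 in WT cells at 3 h, and by -0.48 in KO and -0.37 in WT cells at 6 h.

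The split of all called genes moved with it. At 3 h 47.0% of calls in KO and 47.1% in WT cells were higher, against 34.8% in KO and 33.9% in WT under quantile normalization, and 20.8% in KO and 23.0% in WT with equal total reads. At 6 h 49.0% in KO and 49.0% in WT cells were higher, against 40.4% in KO and 40.0% in WT under quantile normalization, and 20.2% in KO and 20.8% in WT with equal total reads. For the difference between 6 and 3 h it was 55.7% in KO and 56.2% in WT cells, against 46.8% in KO and 46.1% in WT under quantile normalization, and 23.1% in KO and 22.7% in WT with equal total reads. Mb21d1, Tbk1 and Tank rose under all 3 scalings at 3 and 6 h in both genotypes.

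**Figure D3:**
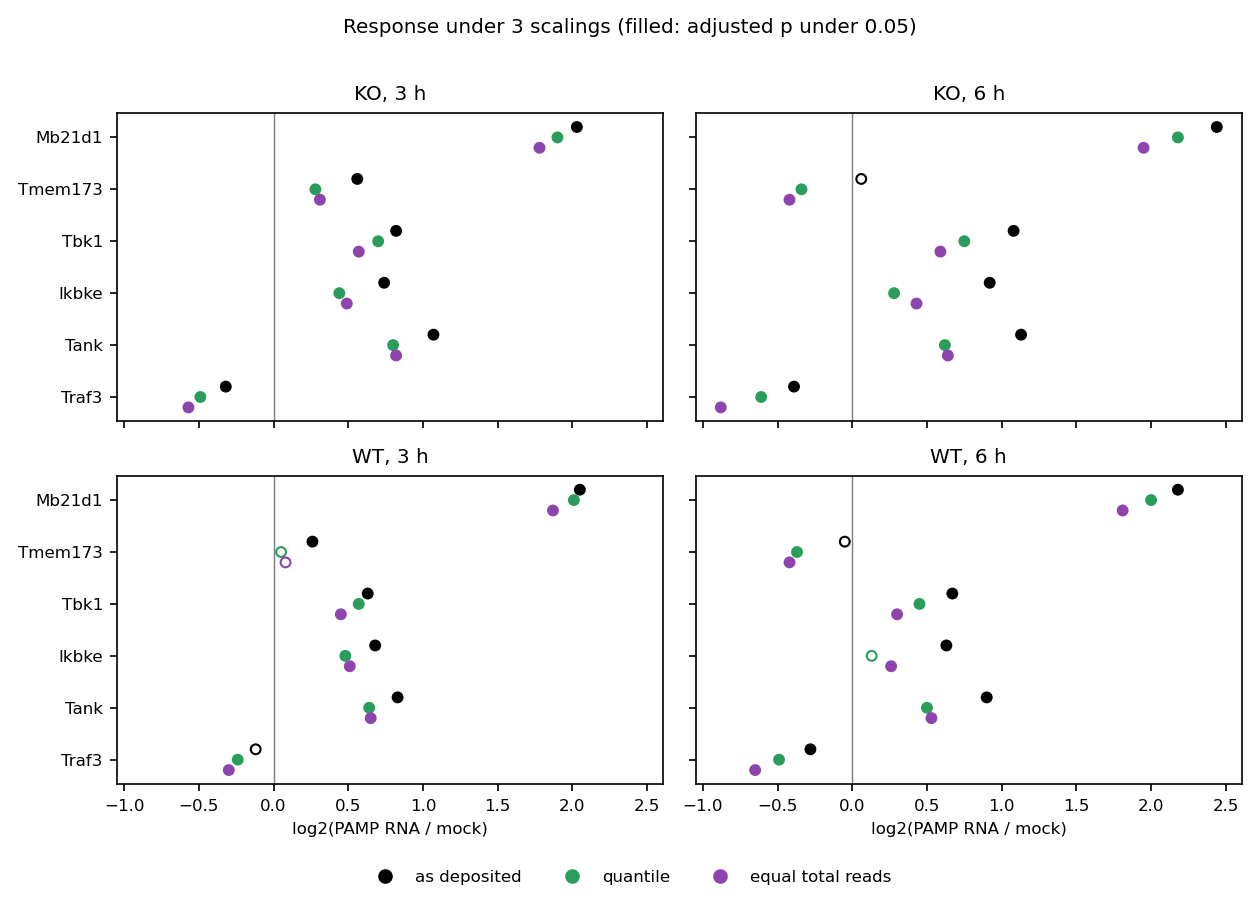
Log2 response to PAMP RNA at 3 and 6 h in KO and WT cells with the values as deposited, after quantile normalization and after scaling to equal total reads. Mb21d1, Tbk1 and Tank stay above 0 under all 3, Traf3 stays below 0, and Tmem173 at 6 h lies at 0.06 in KO and -0.05 in WT as deposited and at -0.34 to -0.42 under the other 2.

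Tbk1, the gene of the kinase shared by the DNA and RNA pathways, rose in both genotypes. Its values at 3 h were 707, 732 and 726 normalized counts in KO PAMP cells, against 426, 375 and 426 in KO mock cells. They were 550, 598 and 646 in WT PAMP cells, against 404, 379 and 372 in WT mock cells. The PAMP and mock groups did not overlap. At 6 h Tbk1 had 939, 1015 and 1063 normalized counts in KO PAMP cells, against 462, 515 and 452 in KO mock cells. It had 779, 768 and 721 in WT PAMP cells, against 466, 480 and 476 in WT mock cells. PAMP and mock libraries stood apart again, and at both times the KO PAMP libraries lay above the WT PAMP libraries. The log2 response at 3 h was 0.82 in KO cells (SE 0.07, adjusted p = 1.24e-13) and 0.63 in WT cells (SE 0.07, adjusted p = 4.17e-10). The value at 6 h was 1.08 in KO cells (SE 0.07, adjusted p = 5.88e-18) and 0.67 in WT cells (SE 0.07, adjusted p = 3.61e-11).

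Ikbke, the gene of IKK-epsilon, rose with time in mock cells and was higher again with PAMP RNA. Mock cells averaged 622 ± 29.7, 1159 ± 147 and 1906 ± 146 normalized counts at 1, 3 and 6 h in KO, and 583 ± 36.2, 1049 ± 43.2 and 1988 ± 168 in WT (SD, n = 3). The rise between 1 and 3 h was 0.89 in KO (adjusted p = 1.69e-14) and 0.85 in WT (adjusted p = 8.54e-14). The rise between 3 and 6 h was 0.72 in KO (adjusted p = 2.24e-11) and 0.92 in WT (adjusted p = 1.88e-14). Between those times 3 and 4 of the 6 genes changed in KO mock cells and 5 and 5 in WT mock cells, beside 42.9% and 43.3% of all genes in KO and 43.5% and 43.7% in WT. Between 3 and 6 h, 50.6% of calls in KO and 50.3% in WT were higher, against 38.4% in KO and 38.5% in WT with equal total reads.

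The sum of the macrophage markers was also higher at later times in mock cells, though its genes did not move alike. The sum was 17556 to 18263 normalized counts at 1 h, 19524 to 20503 at 3 h and 25909 to 27042 at 6 h in KO mock cells. In WT mock cells it was 18490 to 19822, 21221 to 22105 and 27916 to 28316. Csf1r averaged 4399, 6771 and 10167 in KO mock and 4291, 6185 and 9185 in WT mock cells at 1, 3 and 6 h. Mrc1, the mannose receptor, went the other way, at 3255, 1710 and 1058 in KO mock and 2605, 1453 and 988 in WT mock cells, and Mertk was lower at 3 and 6 h than at 1 h. The part of these markers in the rise of Ikbke was not tested.

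With PAMP RNA, Ikbke rose at both times. At 3 h there were 1875, 1982 and 1931 normalized counts in KO PAMP cells, against 1293, 1002 and 1182 in KO mock cells. Values were 1646, 1827 and 1590 in WT PAMP cells, against 1094, 1007 and 1046 in WT mock cells. The PAMP libraries lay above the mock libraries. At 6 h Ikbke had 3349, 3817 and 3629 normalized counts in KO PAMP cells, against 2037, 1933 and 1748 in KO mock cells. Values were 3000, 3297 and 2928 in WT PAMP cells, against 2173, 1846 and 1945 in WT mock cells. The same held at 6 h in both genotypes. The log2 response at 3 h was 0.74 in KO cells (SE 0.07, adjusted p = 1.89e-12) and 0.68 in WT cells (SE 0.07, adjusted p = 3.11e-11). By 6 h it was 0.92 in KO cells (SE 0.07, adjusted p = 1.04e-15) and 0.63 in WT cells (SE 0.07, adjusted p = 1.46e-10). In WT cells at 6 h quantile normalization left 0.13 (adjusted p = 0.142).

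Tank, the gene of the scaffold that binds both kinases, rose in both genotypes at 3 and 6 h. At 3 h Tank had 1612, 1745 and 1723 normalized counts in KO PAMP cells, against 880, 712 and 839 in KO mock cells. It had 1508, 1465 and 1562 in WT PAMP cells, against 794, 860 and 894 in WT mock cells. No PAMP library overlapped a mock library. At 6 h Tank had 2302, 2206 and 2242 normalized counts in KO PAMP cells, against 1056, 1029 and 1006 in KO mock cells. It had 2119, 1831 and 1988 in WT PAMP cells, against 997, 1046 and 1134 in WT mock cells. The groups stood apart again. The log2 response at 3 h was 1.07 in KO cells (SE 0.06, adjusted p = 4.37e-20) and 0.83 in WT cells (SE 0.06, adjusted p = 5.18e-16). By 6 h it was 1.13 in KO cells (SE 0.06, adjusted p = 2.7e-21) and 0.90 in WT cells (SE 0.06, adjusted p = 1.5e-17). In mock cells Tank was higher at 6 h than at 3 h, by 0.35 in KO (adjusted p = 8.61e-06) and 0.32 in WT (adjusted p = 4.2e-05).

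Traf3, the ubiquitin ligase of the group, whose promoter window holds the same kind of motif as that of Tank, fell in KO cells at 3 and 6 h and in WT cells at 6 h. At 3 h Traf3 had 583, 595 and 629 normalized counts in KO PAMP cells, against 741, 729 and 787 in KO mock cells. It had 613, 637 and 672 in WT PAMP cells, against 738, 697 and 653 in WT mock cells. The KO groups stood apart and the WT groups overlapped. At 6 h Traf3 had 599, 643 and 634 normalized counts in KO PAMP cells, against 812, 836 and 812 in KO mock cells. It had 650, 666 and 672 in WT PAMP cells, against 819, 792 and 801 in WT mock cells. In both genotypes every PAMP library lay below every mock library at 6 h. The log2 response at 3 h was -0.32 in KO cells (SE 0.05, adjusted p = 2.07e-06) and -0.12 in WT cells (SE 0.05, adjusted p = 0.0761). The 6 h response was -0.39 in KO cells (SE 0.05, adjusted p = 1.63e-08) and -0.28 in WT cells (SE 0.05, adjusted p = 1.69e-05). The WT value at 3 h passed under quantile normalization (-0.24, adjusted p = 0.000108), equal total reads (-0.30, adjusted p = 1.25e-05) and edgeR (-0.14, adjusted p = 0.0306). It also passed on leaving out replicate 3 of WT PAMP (-0.15, adjusted p = 0.0404) or of WT mock (-0.16, adjusted p = 0.0259).

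Smaller changes with time in mock cells were seen in other members. Tmem173 was higher at 3 h than at 1 h, by 0.20 in KO (adjusted p = 0.00386) and 0.17 in WT (adjusted p = 0.0121). The KO call was lost without KO mock 1 h replicate 2 (0.12, adjusted p = 0.106), and the WT call without WT mock 1 h replicate 2 (0.15, adjusted p = 0.0611) or 3 (0.15, adjusted p = 0.0551). Tbk1 was higher at 6 h than at 3 h, by 0.22 in KO (adjusted p = 0.0126) and 0.30 in WT (adjusted p = 0.000762). Its KO call was lost with equal total reads (0.16, adjusted p = 0.0915), without KO mock 3 h replicate 2 (0.16, adjusted p = 0.112) and without KO mock 6 h replicate 2 (0.16, adjusted p = 0.111). Traf3 in WT mock cells was lower at 3 h than at 1 h (-0.26, adjusted p = 0.000111) and higher at 6 h than at 3 h (0.21, adjusted p = 0.00155).

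Ordered by mean, the 12 group levels of a gene formed few separate steps. For Mb21d1 the mock groups and the PAMP groups at 1 h averaged 164 to 298 normalized counts and stood apart from the 4 later PAMP groups, at 758 to 1115. For Tank the 8 lower groups spanned 811 to 1059, each overlapping the next. The 4 highest groups of Tank did not overlap: 1511 in WT PAMP at 3 h, 1693 in KO PAMP at 3 h, 1979 in WT PAMP at 6 h and 2250 in KO PAMP at 6 h. For Tbk1 the 8 lower groups spanned 385 to 476 and overlapped in turn. For Traf3 all 12 groups, between 602 and 833, overlapped their neighbours. For Ikbke the 4 groups at 1 h were the lowest, at 583 to 630, and KO PAMP (3598) and WT PAMP (3075) at 6 h the highest, each apart from the next below. For Tmem173 the 4 groups at 1 h were the lowest, at 915 to 968, and KO PAMP (1539) and WT PAMP (1303) at 3 h the highest, each apart from the next below.

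Per kilobase of exon in GENCODE, Tmem173 had the highest mean level of the 6 genes in all 12 groups. It lay between 334 normalized counts per kb in KO mock cells at 1 h and 562 in KO PAMP cells at 3 h. These ranks depend on the lengths, which join the exons of all annotated transcripts: 2741 bases for Tmem173, 6096 for Tank and 9018 for Ikbke. Undivided, KO PAMP cells at 6 h averaged 3598 normalized counts of Ikbke, 2250 of Tank and 1143 of Tmem173. Ikbke ranked 5 or 6 at 1 h, at 64.6 to 69.9 per kb. At 6 h it ranked next below Tmem173, at 399 ± 26.1 per kb in KO PAMP, 211 ± 16.2 in KO mock, 341 ± 21.7 in WT PAMP and 220 ± 18.6 in WT mock cells (SD, n = 3). In KO PAMP cells at 6 h Tmem173 was close, at 417 ± 9.08 per kb. There Ikbke was the higher of the pair in replicate 2 (423 against 408).

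Ratios within a library do not depend on a scaling factor. The ratio of Ikbke to Tbk1 per kb was higher at each later time in all 4 groups, with means of 0.56 to 0.605 at 1 h, 1.16 to 1.23 at 3 h and 1.55 to 1.82 at 6 h. The 6 h means were 1.55 ± 0.075 in KO PAMP, 1.74 ± 0.151 in KO mock, 1.76 ± 0.096 in WT PAMP and 1.82 ± 0.181 in WT mock cells (SD, n = 3). The other 2 ratios separated PAMP from mock cells. Mb21d1 over Tmem173 at 6 h was 0.517 ± 0.03 in KO PAMP and 0.1 ± 0.012 in KO mock cells, and 0.448 ± 0.033 in WT PAMP and 0.096 ± 0.017 in WT mock cells. Tank over Traf3 at 6 h was 4.35 ± 0.26 in KO PAMP and 1.52 ± 0.045 in KO mock cells, and 3.6 ± 0.311 in WT PAMP and 1.59 ± 0.12 in WT mock cells. Such ratios show unequal change of a pair and not which gene moved, and they carry no test.

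**Figure D4:**
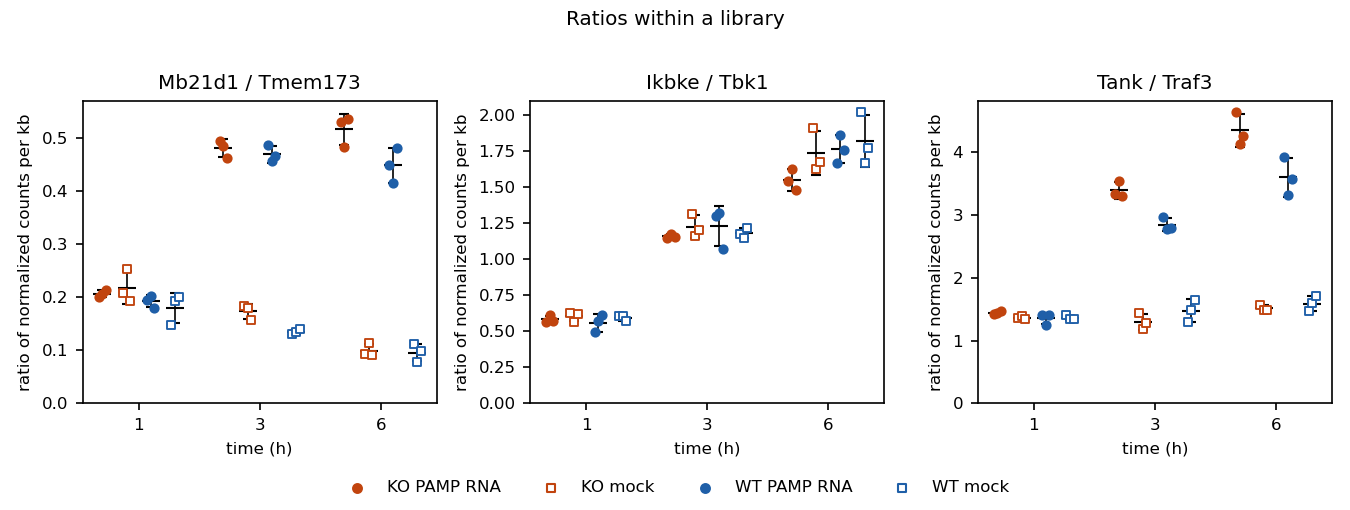
Ratios of normalized counts per kb within each library, by time (h) and group, with the mean and SD (n = 3) in black. Ikbke over Tbk1 is higher at each later time in all 4 groups, while Mb21d1 over Tmem173 and Tank over Traf3 separate PAMP from mock cells at 3 and 6 h.

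The comparison of genotypes asks whether the response differs in cells labelled KO. In limma at 1 h 0 of the 6 genes differed, with 0 at an unadjusted p under 0.05 and 0 in edgeR and DESeq2, beside 0.118% of all genes. At 3 h 1 differed, Tmem173, whose response was higher in KO cells by 0.30 (SE 0.08, adjusted p = 0.0261), beside 3.14% of all genes. At 6 h 1 differed, Tbk1, higher by 0.41 (SE 0.10, adjusted p = 0.00659), beside 10.5% of all genes. The Tbk1 libraries at 6 h lay at 939 to 1063 normalized counts in KO PAMP and 721 to 779 in WT PAMP cells, while the mock libraries overlapped (452 to 515 in KO and 466 to 480 in WT). Over all 6 genes, KO PAMP and WT PAMP libraries did not overlap for 2, 5 and 4 genes at 1, 3 and 6 h, beside 26.5%, 35.7% and 33.2% of all genes.

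Neither call held under every setting. The difference for Tmem173 was 0.23 under quantile normalization (adjusted p = 0.112) and with equal total reads (adjusted p = 0.0964). It was 0.29 to 0.30, with adjusted p between 0.0503 and 0.0687, without any 1 of 7 libraries at 3 h: KO PAMP replicate 2 or 3, KO mock replicate 1 or 3, WT PAMP replicate 1 or 2, or WT mock replicate 2. For Tbk1 it was 0.30 under quantile normalization (adjusted p = 0.0792) and 0.29 with equal total reads (adjusted p = 0.0678), and it passed without each single library (0.36 to 0.46). Traf3 passed with equal total reads, at -0.28 (3 h, adjusted p = 0.0419) and -0.23 (6 h, adjusted p = 0.0441). With the deposited values Traf3 was at -0.20 (3 h, adjusted p = 0.174) and -0.11 (6 h, adjusted p = 0.399). Equal total reads moved the median gene of this difference by -0.11 at 6 h. The share of called genes with a higher response in KO was 82.3% at 3 h and 63.6% at 6 h, against 64.0% and 42.5% under quantile normalization and 48.5% and 23.3% with equal total reads.

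The other differences in response at 6 h did not pass the threshold. Ikbke was at 0.29 (adjusted p = 0.0618, interval of 2 SE 0.08 to 0.49) and Tank at 0.22 (adjusted p = 0.0938, 0.05 to 0.40). Mb21d1 was at 0.25 (adjusted p = 0.217, upper bound 0.51) and Tmem173 at 0.12 (adjusted p = 0.413, -0.05 to 0.28). Ikbke passed in edgeR (0.29, adjusted p = 0.0381) and, at 0.34, without KO PAMP replicate 1, KO mock replicate 1, WT PAMP replicate 2 or WT mock replicate 2 (adjusted p between 0.0333 and 0.0401). Mb21d1 passed without WT mock replicate 2 (0.39, adjusted p = 0.0358) and Tank without WT PAMP replicate 1 (0.28, adjusted p = 0.0449). Both other scalings made these 6 h differences smaller. Under quantile normalization Ikbke was at 0.14 (adjusted p = 0.504), Tank at 0.12 (adjusted p = 0.469) and Mb21d1 at 0.18 (adjusted p = 0.465). With equal total reads they were at 0.17 (adjusted p = 0.32), 0.11 (adjusted p = 0.432) and 0.14 (adjusted p = 0.526). At 3 h the difference for Mb21d1 was -0.02, with an interval of 2 SE between -0.27 and 0.24.

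In mock cells 1 of these genes differed between genotypes, at 1 of 3 times. By limma 0 of 6 passed at 1 h and at 6 h, with 1 (Mb21d1) at an unadjusted p under 0.05 at 1 h and 0 at 6 h, beside 11.6% and 11.0% of all genes, and edgeR and DESeq2 called 0. At 3 h 1 passed, Mb21d1, with 249 to 287 normalized counts in KO and 214 to 227 in WT mock cells, a difference of 0.30 (SE 0.09, adjusted p = 0.0289), beside 8.22% of all genes. This call was lost with no filter on low values (0.30, adjusted p = 0.0706). It was lost too without KO mock replicate 1 or 2 or WT mock replicate 1, 2 or 3 (0.26 to 0.31, adjusted p between 0.0607 and 0.129). Without KO mock replicate 2, Ikbke passed (0.24, adjusted p = 0.0432). KO and WT mock libraries did not overlap for 1, 2 and 1 of the 6 genes at 1, 3 and 6 h, beside 25.8%, 25.6% and 29.7% of all genes.

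The summed dendritic cell markers were lower in KO, but not each marker alike. The sum at 3 h was 30449 to 30947 normalized counts in KO PAMP, 26310 to 27940 in KO mock, 42169 to 42785 in WT PAMP and 38745 to 39196 in WT mock cells. At 6 h the sum was 40825 to 41609 in KO PAMP, 31806 to 33141 in KO mock, 52111 to 52995 in WT PAMP and 44284 to 46421 in WT mock cells. Cd74 and H2-Ab1, both of antigen presentation, made up most of that sum, with medians of 19399 and 7467 over all libraries. Itgax, whose product was used for the enrichment, differed less: it averaged 2509 in KO PAMP, 2753 in KO mock, 2599 in WT PAMP and 3017 in WT mock cells at 6 h. Ciita averaged 2342 in KO mock and 2585 in WT mock cells at 6 h. Ccr7 differed more, at 8537 in KO PAMP, 3275 in KO mock, 11278 in WT PAMP and 5726 in WT mock cells at 6 h. Zbtb46 was at 327 in KO PAMP, 193 in KO mock, 442 in WT PAMP and 281 in WT mock cells. Every marker of the list averaged lower in KO mock than in WT mock cells at 6 h, by unlike amounts. The part of these markers in the genotype differences was not tested.

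The genes whose 12 group means were most like those of a member, by Pearson correlation of log2 values over 9789 genes with a mean of at least 50, are given as a description. For Mb21d1 they were Naa25 (0.993), Timeless (0.991) and Fam84b (0.986), and for Tmem173 Zc3h4 (0.946), Dr1 (0.926) and Gltscr1l (0.915). For Tbk1 they were Zc3h7a (0.992), Atp13a1 (0.988) and Nlrp3 (0.987), and for Ikbke Mocs1 (0.996), Gbgt1 (0.994) and Mtmr6 (0.993). For Tank they were Uba7 (0.996), Triobp (0.993) and Hrh2 (0.993), and for Traf3 Unkl (0.977), Ctdsp2 (0.964) and Rassf3 (0.959). Between members the correlation was 0.98 for Tbk1 and Tank, and Traf3 was negative with the other 5 (-0.89 to -0.64). The 12 means share the same libraries and time course.

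Around these 6 genes, lists of other genes of the pathway were examined by their counts and medians at 6 h. Of 28 tested regulators of cGAS and STING, 11 rose and 11 fell in KO cells (median -0.03) and 8 rose and 10 fell in WT cells (median 0.02). These 22 of 28 and 18 of 28 lie near the 71.7% of all genes called in KO (35.1% higher, 36.5% lower) and 65.4% in WT (32.1% higher, 33.3% lower). With equal total reads 6 rose and 19 fell in KO and 6 rose and 20 fell in WT, but that scaling moved all genes alike: the list's median was then -0.495 in KO and -0.352 in WT, beside -0.509 in KO and -0.393 in WT over all genes. Counts with equal total reads below carry the same shift. The leading genes were Usp18, an ISG15 protease (5.18 in KO, 4.25 in WT), and Ifi204, a DNA sensor of the IFI16 family (4.77 in KO, 4.24 in WT). Next came Trex1, the exonuclease that removes cytosolic DNA (2.79 in KO, 2.29 in WT), and Samhd1, a nucleotide hydrolase (2.28 in KO, 2.04 in WT). Their adjusted p was 6.89e-27 or less.

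Of 10 tested adaptors of TBK1 and IKK-epsilon, 5 rose and 2 fell at 6 h in each genotype (median 0.07 in KO, 0.11 in WT), a share near the 71.7% of all genes in KO and 65.4% in WT. With equal total reads 3 rose and 7 fell in KO and 2 rose and 6 fell in WT. Azi2, which encodes the TBK1-binding adaptor NAP1, rose by 1.82 in KO (adjusted p = 1.73e-31) and 1.43 in WT (adjusted p = 4.41e-27). Optn, the autophagy receptor optineurin, rose by 1.57 in KO and 1.17 in WT. Ticam2, an adaptor of TLR4 signalling, fell (-1.10 in KO, -0.65 in WT), as did Mavs, the adaptor below RIG-I (-0.79 in KO, -0.74 in WT), with adjusted p of 1.2e-08 or less.

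Of the 9 genes of the TRAF family and the IKK complex, 5 rose and 2 fell in each genotype (median 0.26 in KO, 0.42 in WT), again beside 71.7% of all genes called in KO and 65.4% in WT. With equal total reads 3 rose and 4 fell in KO and 4 rose and 3 fell in WT. They were led by Traf1 (1.62 in KO, 1.20 in WT), and Traf2 was at 0.89 in KO and 0.62 in WT; both encode adaptors of TNF receptors. Chuk, the gene of IKK-alpha, was at 0.60 in both, and in KO cells at 0.11 with equal total reads (adjusted p = 0.144). Among the 3 IRF genes, Irf7 rose by 6.52 in KO (adjusted p = 1.33e-33) and 5.65 in WT (adjusted p = 6.94e-31). Irf5 rose by 0.86 in KO and 0.64 in WT, though quantile normalization left 0.07 in WT (adjusted p = 0.142). Irf3 fell in WT cells (-0.25, adjusted p = 0.00872). In this list 2 rose and 0 fell in KO and 2 rose and 1 fell in WT (median 0.86 in KO, 0.64 in WT).

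Of 17 ubiquitin and phosphatase regulators, 10 rose and 4 fell in KO (median 0.22) and 7 rose and 5 fell in WT (median 0.09) at 6 h. The 14 of 17 and 12 of 17 called stand beside 71.7% of all genes in KO and 65.4% in WT. With equal total reads 3 rose and 10 fell in KO and 3 rose and 13 fell in WT. Usp25, a deubiquitinase, rose by 2.18 in KO and 1.94 in WT, and Tnfaip3, the gene of the ubiquitin-editing enzyme A20, by 1.22 in KO and 0.95 in WT. Dtx4, a ubiquitin ligase that acts on TBK1, fell (-1.32 in KO, -1.11 in WT), as did Rnf128, also a ubiquitin ligase (-1.10 in KO, -0.93 in WT).

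Of 9 genes of the alternative NF-kB pathway, 8 rose and 1 fell in KO (median 0.58) and 7 rose and 1 fell in WT (median 0.45) at 6 h, where 35.1% of all genes were higher in KO and 32.1% in WT. With equal total reads 5 rose and 2 fell in KO (median 0.10) and 4 rose and 2 fell in WT (median 0.08). Cd40, a receptor that signals through TRAF proteins, rose by 4.98 in KO and 4.21 in WT. Birc2, a ubiquitin ligase that works with TRAF proteins, rose by 1.15 in KO and 0.96 in WT, and Relb, a transcription factor of the pathway, by 0.73 in KO and 0.70 in WT. Map3k14 encodes the kinase NIK, which TRAF3 keeps low as a protein. The RNA of Map3k14 fell at 3 h (-0.63 in KO, adjusted p = 3.44e-13, and -0.50 in WT, adjusted p = 3.5e-10), and protein was not measured here. In mock cells, 0 genes of this list were higher and 6 lower in KO than in WT at 1 h, beside 11.6% of all genes called. At 3 h 1 was higher and 4 lower, and at 6 h 1 higher and 5 lower, beside 8.22% and 11.0% of all genes. Map3k14 was lower in KO than in WT, at -0.65 (3 h, adjusted p = 5.35e-12) and -0.60 (6 h, adjusted p = 4.47e-11). Tnfrsf1b, a TNF receptor, was higher in KO mock cells, at 0.28 (3 h, adjusted p = 1.34e-05) and 0.33 (6 h, adjusted p = 3.47e-07). Traf1, of the TRAF list, was lower in KO mock cells, at -0.61 (3 h, adjusted p = 2.47e-08) and -0.62 (6 h, adjusted p = 1.43e-08). The dendritic cell marker sums were lower in the same KO libraries, as given above for 3 and 6 h. At 1 h they were 25846 to 28838 normalized counts in KO mock and 40001 to 41442 in WT mock cells. The part of these sums in the genotype differences was not tested.

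In KO against WT cells at 6 h, the response of 16 genes of these lists was higher and of 2 lower, out of 76 tested. Of all genes tested 6.67% were called higher and 3.81% lower. Under quantile normalization 3 of the 76 were higher and 4 lower, and with equal total reads 7 were higher and 9 lower. Usp18 (0.94, SE 0.17, adjusted p = 0.000122), Azi2 (0.39, SE 0.08, adjusted p = 0.000595) and Traf1 (0.43, SE 0.10, adjusted p = 0.00452) were higher in KO and also passed under both other scalings and without each single library. So did Insig1, a sterol-regulating membrane protein, which was lower in KO (-0.41, SE 0.08, adjusted p = 0.000365).

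**Figure D5:**
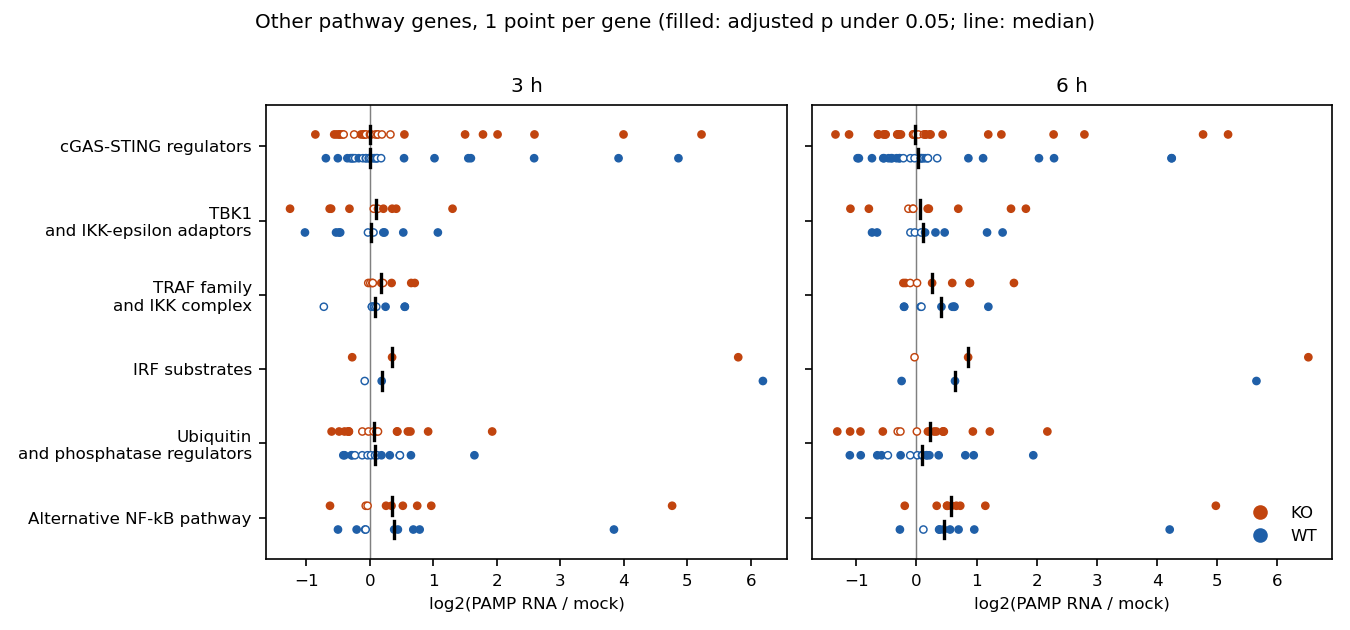
Log2 response to PAMP RNA at 3 and 6 h of the tested genes in 6 lists of the pathway, with 1 point per gene, KO above WT, filled at an adjusted p under 0.05 and a black line at the median. Irf7, Cd40, Usp18 and Ifi204 lie farthest to the right, at 4.21 or more at 6 h in both genotypes.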

How the data were processed

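The deposited table holds a signal per gene and library, which the authors named DESeq-normalized counts. Each value is a whole multiple of 1 step per library, as read counts divided by a size factor would be. TopHat, Cufflinks and DESeq2 are named in the submitters' processing notes, with the GRCm38 (mm10) genome and no versions. Per the labels' protocols, CD11c-positive cells were lysed, amplified cDNA libraries that do not mark the strand were made, and 100-base single reads were sequenced.

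Whole reads were recovered from the steps of each column (100.0% of values within 0.01 of a read), giving 4740909 to 14255730 reads per library. Of 24127 genes, 4887 had no read. log2(normalized count + 1) of the 11853 genes with a mean of at least 10 was fitted in limma 3.58.1 (R 4.3.3) with the 12 groups as terms, 24 residual degrees of freedom and a trended variance. The pseudocount makes fold changes of low genes smaller. There were 18 two-sided comparisons, with Benjamini-Hochberg adjustment over all genes tested and a threshold of 0.05. The fit was first tested on simulated counts in which few genes changed, as many up as down. That test does not bear on the choice of scaling. Alternatives were a pseudocount of 5, no filter, quantile normalization, equal total reads, edgeR 4.0.16 and DESeq2 1.42.0 on the recovered reads, a replicate block, only the groups compared, and leaving out each library. On the recovered reads edgeR called 6033 genes at 3 h and 8364 at 6 h in the KO response and 5357 and 7640 in the WT response.

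Named genes are the 6 members, Dhx58, up to 4 called genes per list and comparison with a mean of at least 50 and the largest change, and the 3 genes most like each member. Of those per list, the text gives only a part. It was drawn mostly from genes whose call a single library or scaling did not end, with exceptions marked. The members and lists were chosen with earlier results of these data known. Promoter sequences are from RefSeq. Lengths per kb are GENCODE exon unions and not the authors' annotation.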

Additional observations from a re-analysis of the deposited data

Results flagged for a closer look

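The response of Tmem173 to PAMP RNA at 3 h differed between genotypes by the test of the difference itself, at 0.30 on the log2 scale (KO minus WT, SE 0.08, adjusted p = 0.0261 in limma). All 3 KO PAMP libraries lay above all 3 WT PAMP libraries. The response of Tbk1 at 6 h differed between genotypes by the same test, at 0.41 (KO minus WT, SE 0.10, adjusted p = 0.00659), again with all 3 KO PAMP libraries above all 3 WT PAMP libraries. Neither difference passed under quantile normalization or with equal total reads.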

How the results depend on the processing

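Of the values of single members under all alternatives, 1599 kept their side of the threshold, 65 lost a call and 26 gained one with the same sign. Direction was not compared for values that passed in neither fit. Some of these changed sign, such as Tank in the WT response at 6 h minus 3 h (0.07, and -0.14 under quantile normalization). The other 2 gained a call with the opposite sign: Tmem173 in KO cells at 6 h was at -0.34 under quantile normalization and -0.42 with equal total reads. The number of members called moved as follows. For the KO minus WT response it was 1 at 3 h, 0 under quantile normalization and 0 to 1 without a library, and 1 at 6 h, 0 under quantile normalization, 2 in edgeR and 1 to 3 without a library. For KO minus WT mock cells at 3 h it was 1, 0 with no filter and 0 to 1 without a library. Between 1 and 3 h it was 5 in WT mock cells, 3 with no filter, in edgeR and with only the groups compared, and 2 to 5 without a library, and 3 in KO mock cells, 1 to 3 without a library. For the response at 6 h minus 3 h it was 3 in KO, 1 under quantile normalization, and 1 in WT, 3 under quantile normalization, 2 with equal total reads and 1 to 2 without a library. Smaller moves are not listed here. Among them, Tank in KO mock cells between 1 and 3 h lost its call with no filter and under quantile normalization. The same call was lost in edgeR, in DESeq2 and with only the groups compared. The cause of these moves was not tested.

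Counts over all genes moved by over 1.5 times in 7 cases. The WT response at 1 h had 112 calls, 69 with only the groups compared. The KO minus WT response had 14 at 1 h, 9 in edgeR, and 372 at 3 h, 242 under quantile normalization, 237 without WT mock replicate 2 and 240 without WT PAMP replicate 1. KO minus WT mock cells had 1377 at 1 h, 728 with only the groups compared, and 1309 at 6 h, 855 without KO mock replicate 2. With the replicate number as a block, 6 members were called in KO and 5 in WT cells at 3 h, as without it, and no call of a member changed. The numbers do not pair the libraries: correlations of same-numbered deviations lay between -0.11 and 0.18 (median 0), and 12 of 36 libraries were closest to their own number. Mb21d1 in mock cells had the fewest reads, so its small differences are the least precise.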
